A study of Homo sapiens with 12 samples.

Results

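The 3 HIF prolyl hydroxylase genes EGLN1, EGLN2 and EGLN3, the asparaginyl hydroxylase gene HIF1AN and the ubiquitin ligase gene VHL were followed across oxygen and siRNA in AsPC-1 cells. They are 5 named genes of the 57820 gene IDs in the count files. They were found by pairing those IDs with gene symbols, and all 5 passed the filter on low counts, as did 16999 genes in all. AsPC-1 is an established human line of pancreatic cancer cells. Cells in replicate wells were transfected with siRNA, either scrambled (called siControl) or directed at ARNT (called siARNT), were divided the next day, and were then held at 1% O2 for 24 h (hypoxia) or kept at 21% O2 (normoxia) until harvest 48 h after transfection. Oxygen and siRNA combine to 4 groups of 3 libraries (A, B and C), all of 1 cell line and all transfected, and the labels do not say whether a letter names the same well at both oxygen levels. The libraries were stranded and made from poly(A) RNA.

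EGLN1, EGLN2 and EGLN3 encode the enzymes PHD2, PHD1 and PHD3, which use oxygen and 2-oxoglutarate to hydroxylate prolines of the HIF alpha subunits. The VHL protein recognises the hydroxylated prolines and brings HIF alpha to a ligase that marks it for degradation, whereas HIF1AN (also called FIH) hydroxylates an asparagine of HIF alpha and so hinders its binding to the coactivators CREBBP and EP300. When oxygen is low, HIF alpha persists, pairs with ARNT and switches on genes, among them some of the hydroxylase genes themselves.

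Libraries held 38.53 to 84.34 M gene counts. ARNT, the target of the siRNA, averaged 62.4 counts per M (CPM) with siControl and 13.4 with siARNT in normoxia, and 69.1 and 15.3 in hypoxia. The epithelial markers KRT8, KRT18 and EPCAM averaged 827 CPM or more in every group, and MUC1 averaged 16.1 to 42.1 CPM. Of 11 listed markers of fibroblasts, endothelium, leukocytes, acinar and endocrine cells, PECAM1 had no value. The others stayed at or below 0.599 CPM in every group mean, with CD3E and INS at 0. In bulk RNA, a change in the number of cells that express a gene and a change in its RNA per cell cannot be told apart.

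The motif ACGTG is the core of the hypoxia response element that HIF binds, so the 250 bases before the RefSeq start sites (GRCh38.p14) of EGLN1, EGLN2, EGLN3 and HIF1AN were searched for ACGTG and GCGTG on both strands. VHL was not searched. The 2 matched windows below are shown because they set side by side a gene that rose under hypoxia and a paralog that was not called. Capitals mark the match, and both windows are 30 bases long and written on the gene's own strand.
EGLN1, chr1:231422288-231422317, minus strand: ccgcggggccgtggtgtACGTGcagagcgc
EGLN2, first start site, chr19:40799129-40799158, plus strand: cgcggggcgcggtCACGTGcccaccgggcg
The EGLN1 match began 13 bases before the RefSeq start. The EGLN2 run CACGTG holds ACGTG on both strands and so counted as 2 overlapping matches, at 48 and 49 bases before the first of 2 start sites. The window of the second EGLN2 start site, that of EGLN3 and that of HIF1AN held neither motif. Of 35116 such windows of all genes, 18.5% held ACGTG and 43.2% held either motif. In GENCODE 29 the EGLN1 transcript begins further upstream than in RefSeq, so this window lies within its annotated first exon.

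EGLN3 and EGLN1 rose under hypoxia in siControl cells, and both rises were smaller with siARNT. EGLN2, HIF1AN and VHL were not called for hypoxia in either siRNA arm. EGLN2 was higher with siARNT than with siControl at both oxygen levels. In hypoxia in siControl, 2 of the 5 genes were called (adjusted p under 0.05), both higher, against 25.3% of all genes tested (10.4% higher, 14.9% lower). In hypoxia in siARNT it was 1 of 5, higher, against 4.09% of all genes (2.21% higher, 1.89% lower).

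**Figure D1:**
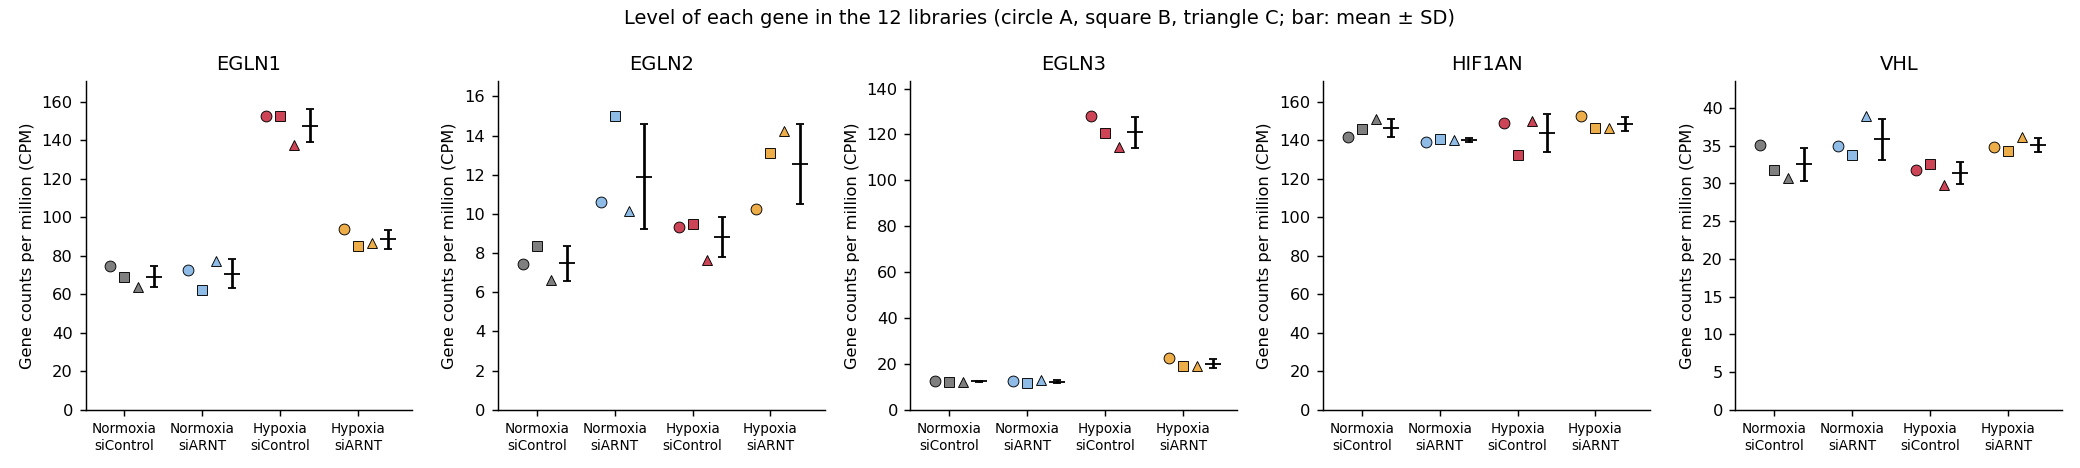
Gene counts per M (y axis, from 0) of each gene in the 12 libraries by group (x axis); symbols are libraries A, B and C, and bars beside them are the mean ± SD of 3 libraries. EGLN3 and EGLN1 in hypoxia siControl stand above all other libraries, EGLN2 is higher in both siARNT groups, and HIF1AN and VHL stay within narrow ranges.

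EGLN3 (ENSG00000129521.9, chromosome 14, 33924231 to 34462774, minus strand, GRCh38) encodes PHD3, an enzyme whose gene is a known HIF target. In normoxia siControl it stood at 12.7, 12.3 and 12.2 CPM in replicates A, B and C, and in normoxia siARNT at 12.4, 11.4 and 13.1. In hypoxia siControl it stood at 127.9, 120.6 and 114.5 CPM, and in hypoxia siARNT at 22.4, 18.9 and 19.0. The 3 hypoxia siControl libraries lay far above the other 9, and the hypoxia siARNT libraries lay above all normoxia libraries. The rise in siControl was 9.76-fold (log2 3.29, SE 0.08, edgeR quasi-likelihood test, adjusted p 1.62e-09). This was the smallest p of all genes tested and the rise ranked 10 by size. With siARNT, EGLN3 still rose, by 1.64-fold (log2 0.71, SE 0.08, adjusted p 0.0018). This call was lost when only the 6 siARNT libraries were fitted (log2 0.73, adjusted p 0.071).

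EGLN1 (ENSG00000135766.8, chromosome 1, 231363751 to 231425044, minus strand) encodes PHD2, the main enzyme that sets HIF alpha levels in normoxia. It stood at 74.5, 68.8 and 63.9 CPM in normoxia siControl and at 72.7, 62.2 and 77.2 in normoxia siARNT. In hypoxia siControl the values were 152.4, 152.4 and 137.7 CPM, and in hypoxia siARNT 94.1, 85.0 and 86.5. As for EGLN3, neither hypoxia group overlapped a normoxia group, and the siControl and siARNT libraries overlapped in normoxia but not in hypoxia. The rise in siControl was 2.14-fold (log2 1.09, SE 0.09, edgeR adjusted p 6.42e-06), which ranked 402 by size among all genes. With siARNT the value was log2 0.32 (SE 0.09), which missed the threshold (adjusted p 0.0621) and passed it in 6 alternative fits, with adjusted p from 0.0146 to 0.0469.

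EGLN2 (ENSG00000269858.1, chromosome 19, 40798996 to 40808433, plus strand) encodes PHD1. Per length it was the lowest of the 3 paralogs in both siControl groups and in hypoxia siARNT. In normoxia siARNT it overlapped with EGLN3. How its shared exons were counted is uncertain, as given below, and so is this rank. EGLN2 stood at 7.45, 8.38 and 6.61 CPM in normoxia siControl and at 9.31, 9.47 and 7.66 in hypoxia siControl. With siARNT the values were 10.6, 15.0 and 10.1 CPM in normoxia and 10.3, 13.1 and 14.2 in hypoxia. The siControl libraries at the 2 oxygen levels overlapped, as did the siARNT libraries, whereas siControl and siARNT did not overlap at either oxygen level. Between oxygen levels it differed by log2 0.24 with siControl (SE 0.17, edgeR adjusted p 0.352) and by 0.07 with siARNT (SE 0.17, adjusted p 0.826).

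HIF1AN (ENSG00000166135.9, chromosome 10, 100529072 to 100559998, plus strand) stood between 132.4 and 152.6 CPM in all 12 libraries. Its values in normoxia siControl were 142.0, 145.8 and 151.2 CPM and in hypoxia siControl 149, 132.4 and 150.1. In normoxia siARNT they were 139.1, 141.0 and 140.3 CPM and in hypoxia siARNT 152.6, 146.3 and 146.6. The libraries of the 2 siControl groups overlapped, and those of hypoxia siARNT lay above those of normoxia siARNT. The difference between oxygen levels was log2 -0.02 with siControl (SE 0.06, edgeR adjusted p 0.797) and 0.08 with siARNT (SE 0.06, adjusted p 0.431).

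VHL (ENSG00000134086.7, chromosome 3, 10141008 to 10152220, plus strand) stood at 35.0, 31.7 and 30.7 CPM in normoxia siControl and at 31.8, 32.5 and 29.8 in hypoxia siControl. With siARNT it stood at 35.0, 33.7 and 38.9 CPM in normoxia and at 34.8, 34.3 and 36.1 in hypoxia. The oxygen groups overlapped in both arms. The difference between oxygen levels was log2 -0.05 with siControl (SE 0.07, edgeR adjusted p 0.664) and -0.03 with siARNT (SE 0.07, adjusted p 0.832).

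The effect of siARNT within an oxygen level gave 1 called gene of 5 in normoxia, which was higher, against 20.2% of all genes (9.42% higher, 10.8% lower). In hypoxia 3 of 5 were called, 1 higher and 2 lower, against 29.1% (14.4% higher, 14.7% lower). In normoxia, EGLN3 and EGLN1 differed by log2 -0.01 (SE 0.08, edgeR adjusted p 0.922) and 0.03 (SE 0.09, adjusted p 0.801). In hypoxia, EGLN3 was lower with siARNT by log2 -2.59 (SE 0.08, adjusted p 2.65e-09) and EGLN1 by -0.74 (SE 0.09, adjusted p 7.25e-05). The HIF1AN values were -0.06 in normoxia and 0.05 in hypoxia, neither of them called.

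EGLN2 rose with siARNT by log2 0.67 in normoxia (SE 0.17, edgeR adjusted p 0.0197) and by 0.51 in hypoxia (SE 0.17, adjusted p 0.0445). The normoxia call was lost without normoxia siControl A (adjusted p 0.0718), normoxia siControl C (0.0932) or normoxia siARNT B (log2 0.46, 0.0606), and the hypoxia call was lost in 8 of the 12 fits that left out 1 library, with adjusted p from 0.0524 to 0.144. GC content was taken from the longest transcript of each gene. For EGLN2 this is EGLN2-216, annotated as a retained intron (55.8% GC), so the correction below does not use the GC of a coding transcript. Libraries differed in how their counts moved with gene GC content. The slope of log2 CPM on GC, relative to the mean of the 12 libraries, ran from -0.21 per 10 GC points in normoxia siControl A to 0.43 in normoxia siARNT B, which also held the highest EGLN2 value. After correction for GC per library, the EGLN2 difference was log2 0.42 in normoxia (adjusted p 0.001) and 0.45 in hypoxia (adjusted p 0.000311). EGLN2 shares 30.6% of its GENCODE 29 exon bases with the read-through gene RAB4B-EGLN2, which held 0 counts in all 12 libraries. No read from the shared exons was thus counted for RAB4B-EGLN2. Each library also held reads set aside as ambiguous, from 667065 in hypoxia siARNT C to 1371416 in normoxia siARNT A. Whether reads from the shared exons are among them is not given in the sources used here. The EGLN2 counts may therefore lack such reads, and its level per length is uncertain. Its difference with siARNT may rest mainly on the other exon bases, which include those of retained-intron transcripts and alternative first exons. Which bases the EGLN2 reads came from was not tested. RAB4B, the neighbour upstream, averaged 2.03 to 2.67 CPM and was not called in any comparison.

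VHL was 0.14 higher on the log2 scale with siARNT in normoxia (SE 0.07, edgeR adjusted p 0.177) and 0.16 higher in hypoxia (SE 0.07, adjusted p 0.129). It passed the threshold with GC correction in normoxia (log2 0.20, adjusted p 0.0383) and with total count scaling in hypoxia (log2 0.24, adjusted p 0.0365). That scaling shifted the median over all genes in the latter comparison from 0.023 to 0.104.

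The difference between the hypoxia changes of the 2 siRNA arms (siARNT minus siControl) was tested directly. It was called for 2 of 5 genes, both negative, against 4.69% of all genes (2.49% positive, 2.19% negative). For EGLN3 it was log2 -2.57 (SE 0.11, edgeR adjusted p 8.09e-07), the smallest p of all genes tested, and for EGLN1 -0.77 (SE 0.12, adjusted p 0.0054). For EGLN2, HIF1AN and VHL it was -0.16 (SE 0.24), 0.11 (SE 0.08) and 0.02 (SE 0.10). In CPM, EGLN3 gained 108.6 with siControl and 7.84 with siARNT, which is 7.22% of the siControl rise. EGLN1 rose by 78.4 in siControl, and its means differed by 17.8 in siARNT, which is 22.7%. Over the 11 HIF target genes listed for reference that could be tested, the same share ran from -8.3% for ADM, the gene of adrenomedullin, to 40.7% for ANKRD37. This comparison and the preceding ones share libraries.

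**Figure D2:**
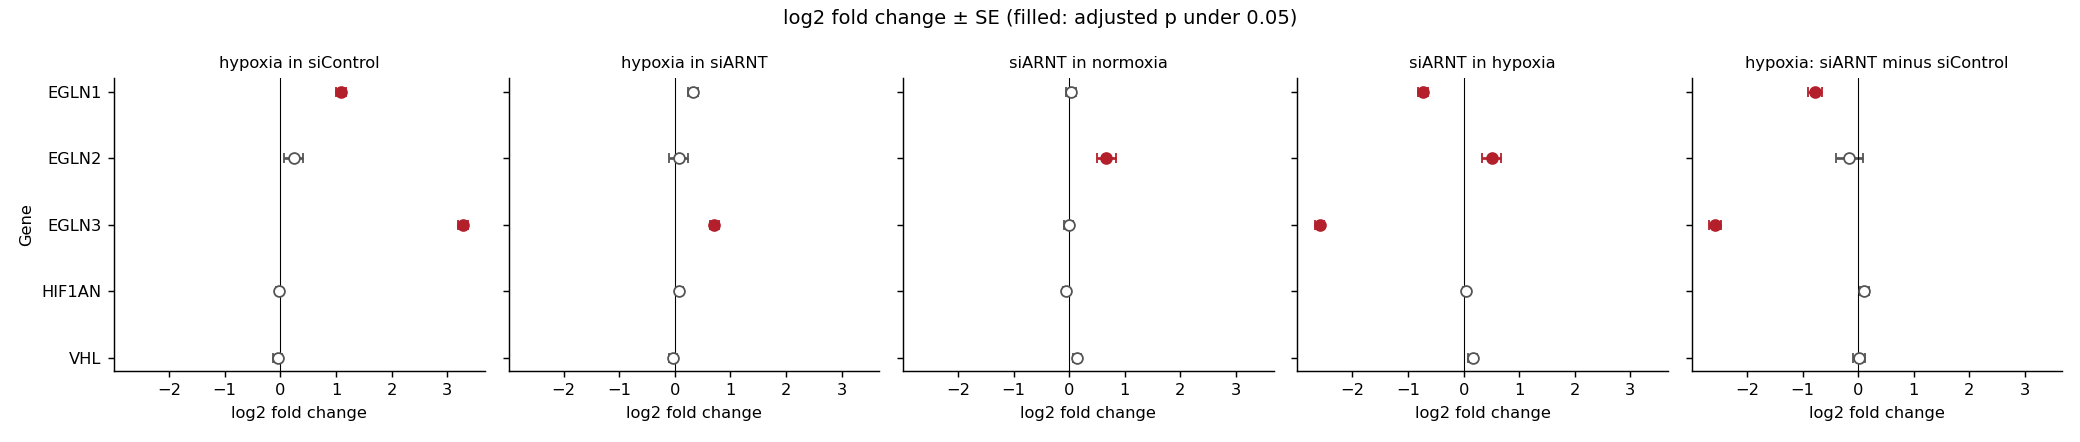
log2 fold change (x axis) ± SE of the 5 genes (y axis) in the 5 comparisons (panels); filled points have an adjusted p under 0.05. EGLN3 reaches 3.29 for hypoxia in siControl and 0.71 in siARNT, and EGLN2 is to the right of 0 in both siARNT panels.

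Levels of different genes were compared per kilobase of merged GENCODE 29 exon length, which also counts exons of noncoding and retained-intron transcripts. In normoxia siControl, HIF1AN (10.5 ± 0.33 CPM per kb, SD, n = 3) and EGLN1 (9.51 ± 0.73) were highest and overlapped, VHL followed (7.71 ± 0.53), and EGLN3 (1.68 ± 0.03) and EGLN2 (1.14 ± 0.13) were lowest and did not overlap. In hypoxia siControl the order was EGLN1 (20.3 ± 1.17 CPM per kb), EGLN3 (16.4 ± 0.92), HIF1AN (10.3 ± 0.71), VHL (7.45 ± 0.34) and EGLN2 (1.34 ± 0.15), with no overlap between neighbours. In hypoxia siARNT EGLN1 was again first (12.2 ± 0.67 CPM per kb), and EGLN3 (2.74 ± 0.27) was again below VHL (8.32 ± 0.22). In normoxia siARNT, EGLN1 overlapped with HIF1AN and with VHL, and EGLN3 overlapped with EGLN2. Per kb, EGLN3 thus moved from the lower pair of genes to a place above HIF1AN and VHL only in hypoxia siControl among these groups. Exon coverage, given next, placed it below HIF1AN there.

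The event files give the mean read coverage of single exons, a second measure from the same libraries that needs no gene length. Coverage per M gene counts of EGLN1 exon 3 was 4.98 ± 0.50 in normoxia siControl and 9.43 ± 0.57 in hypoxia siControl (SD, n = 3). EGLN3 exon 2 went from 0.288 ± 0.029 to 2.61 ± 0.45, a fold of 9.06. With siARNT it stood at 0.340, 0.423 and 0.360 in normoxia and at 0.415, 0.552 and 0.574 in hypoxia, a fold of 1.37. These siARNT libraries overlapped between oxygen levels, whereas their EGLN3 gene counts per M did not. The ratio of EGLN1 exon 3 to EGLN3 exon 2 was 17.5, 16.9 and 17.5 in normoxia siControl, and 3.54, 2.92 and 4.68 in hypoxia siControl. In normoxia siARNT it was 15.9, 9.13 and 14.4, and in hypoxia siARNT 17.0, 11.8 and 11.3. The hypoxia siControl libraries were thus the only ones of the 12 with a ratio below 9. Coverage of HIF1AN exon 3 stayed between 4.67 and 5.39 in all libraries. In hypoxia siControl it averaged 5.05, above the 2.61 of EGLN3 exon 2, which reverses their order per kb. VHL exon 2 stood at 1.19, 1.10 and 1.34 in normoxia siControl against 1.63, 1.80 and 1.53 in normoxia siARNT, and at 1.31, 1.27 and 0.977 in hypoxia siControl against 1.55, 1.33 and 1.97 in hypoxia siARNT. The VHL siARNT libraries lay above the siControl libraries at both oxygen levels, with a log2 fold of 0.45 in each. The gene counts with TMM factors gave 0.14 in normoxia and 0.16 in hypoxia. Coverage was divided by total gene counts, and with total count scaling the VHL gene counts gave 0.24 in hypoxia. Such a gap was not particular to VHL. EGLN3 exon 2 coverage was also higher with siARNT in normoxia, without overlap (log2 fold 0.38), where its gene counts with TMM factors gave -0.01. With 3 against 3 libraries an exact permutation test cannot go below p = 0.1, and none was run on coverage.

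**Figure D3:**
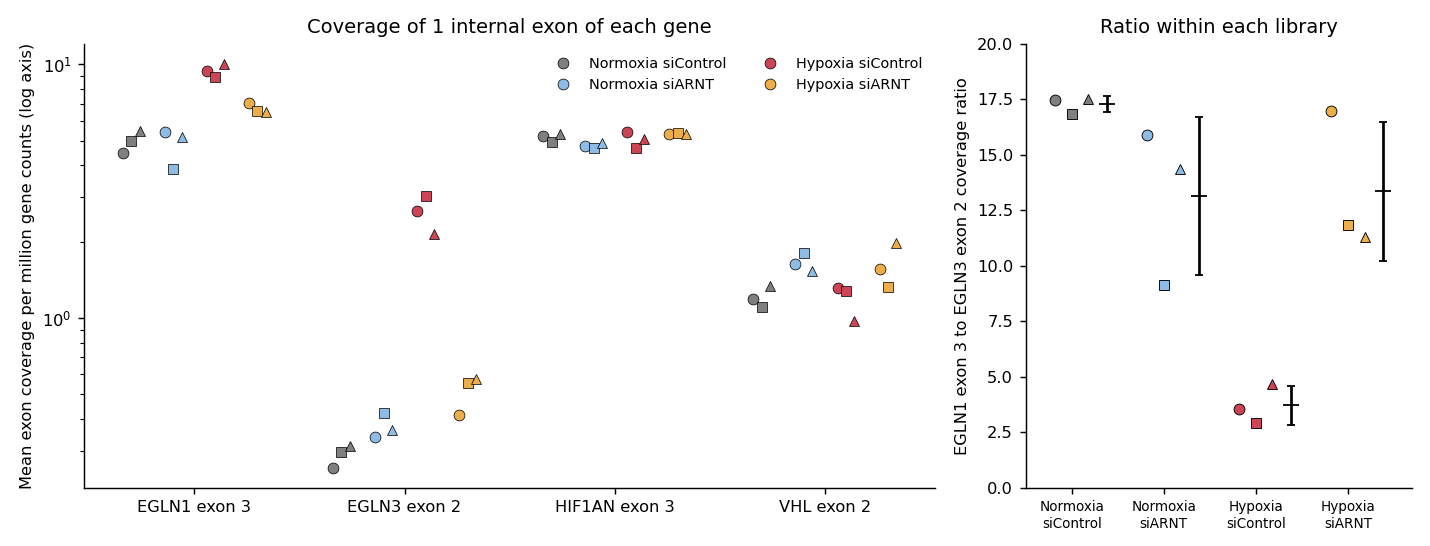
Left, mean coverage of 1 internal exon per gene per M gene counts (log axis) in the 12 libraries, by group colour and replicate symbol; right, the EGLN1 to EGLN3 ratio within each library, with mean ± SD of 3 libraries. The ratio is 2.92 to 4.68 in hypoxia siControl and at least 9.13 in the other libraries.

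The event files hold 5 tested splicing events of these genes and none of EGLN2. None of the 5 was called in any comparison (limma, adjusted p at least 0.766), where few of the 47475 tested events were called at all: 0.0337% for hypoxia in siControl and 0.0379% in siARNT, 0.019% for siARNT in normoxia and 0.0316% under hypoxia, and 0.04% for the difference between arms. At an unadjusted p under 0.05, 0 of them passed as well.

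For EGLN3, reads joined exon 2 to a long (431 bases) or a short (149 bases) form of exon 1, and the short form matches transcript EGLN3-209 by length. In normoxia the short form held 8.10% ± 5.36 of these reads with siControl and 8.23% ± 5.75 with siARNT, and in hypoxia 8.01% ± 3.73 and 10.9% ± 3.87 (SD, n = 3). The long-form reads rose from 12 to 20 per library in normoxia siControl to between 106 and 190 in hypoxia siControl, while short-form reads went from 1 or 2 to between 6 and 21. Both forms were thus more abundant in hypoxia siControl, and a change in their proportion was not detectable at this depth.

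For EGLN1, the share of junction reads that kept exon 4 (68 bases) was 93.7, 96.5 and 94.6% in normoxia siControl and 89.8, 93.8 and 89.9% in normoxia siARNT. These groups overlapped, and the change in log2 odds of -0.84 (SE 0.38, limma p 0.0513, adjusted p 0.766) had the smallest p of all tests on the 5 events. In hypoxia the share was 95.3% ± 0.98 in siControl and 93.7% ± 1.84 in siARNT. Exon 3 (137 bases) was kept in 92.3 to 93.2% of junction reads in the group means. Neither length is a multiple of 3, so skipping either exon alone shifts the reading frame.

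HIF1AN exon 3 (149 bases) was kept in 88.3, 90.6 and 91.2% of junction reads in normoxia siARNT and in 92.1, 100 and 92.4% in normoxia siControl. These groups did not overlap, and the change in log2 odds of -2.14 (SE 1.57, limma adjusted p 0.885) was not called. Leaving out 1 library at a time moved this change between -3.03 and -0.38, so its size depends on single libraries. In hypoxia the mean share was 92.7% ± 0.56 with siControl and 94.9% ± 4.48 with siARNT. The skipping junction held 0 reads in normoxia siControl B and hypoxia siARNT C against 16 to 54 in the others. VHL exon 2 (123 bases, a multiple of 3) encodes part of the domain that contacts HIF alpha, and its skipping yields transcript VHL-202. It was kept in 95.8% ± 3.29 of junction reads with siControl and 97.4% ± 1.47 with siARNT in normoxia, and in 98.6% ± 2.47 and 97.6% ± 2.38 in hypoxia. The skipping junction of VHL held 0 to 4 reads per library, which limits the precision of these shares. Per library, 7 to 30 reads joined exon 1 to exon 2 and 63 to 185 joined exon 2 to exon 3. The kept share thus rests mostly on the latter junction, whereas a skipping read must start in the hardly covered exon 1. These shares may therefore overstate how often exon 2 is kept.

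**Figure D4:**
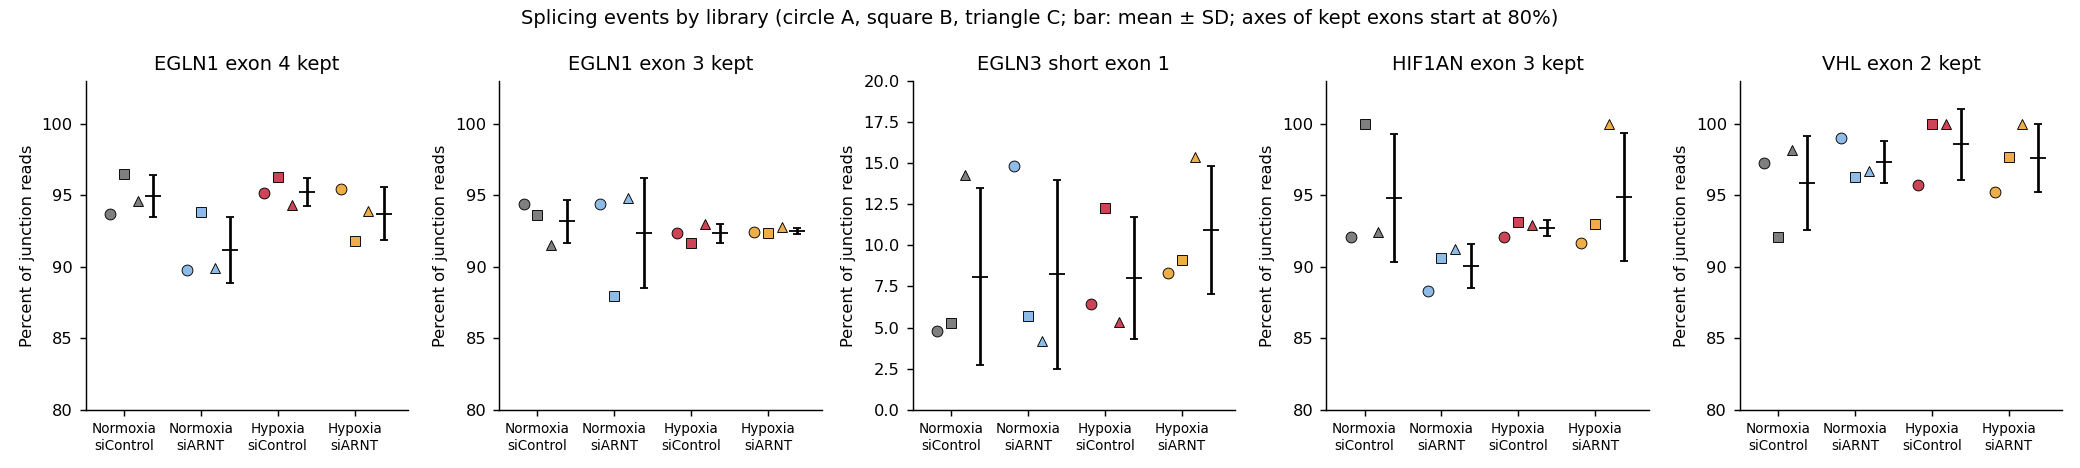
Share of junction reads (y axis, %) for the 5 splicing events in each library by group; bars are mean ± SD of 3 libraries, and the axes of kept exons begin at 80%. The mean EGLN1 exon 4 and HIF1AN exon 3 shares are lowest in normoxia siARNT, and no event was called.

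The substrates and partners of these genes were read from lists of pathway genes. Of the HIF subunits, HIF1A, EPAS1 and ARNT could be tested, and 0 of 3 were called for hypoxia in siControl, against 25.3% of all genes (median log2 0.13, against 0.02 over all genes). EPAS1, which encodes HIF-2 alpha, rose with siARNT in normoxia (92.5 to 125 CPM, log2 0.43, SE 0.07, edgeR adjusted p 0.0012) and in hypoxia (101 to 129 CPM, log2 0.35, SE 0.07, adjusted p 0.0021). HIF1A stood at 102 CPM in normoxia siControl and 106 in hypoxia siControl (log2 0.06, SE 0.11).

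Of the 9 partners of VHL in its ligase and their modifiers, 3 fell and none rose for hypoxia in siControl, against 14.9% of all genes lower and 10.4% higher (median log2 -0.16, against 0.02). CUL2, the cullin scaffold of the ligase, fell by 0.39 on the log2 scale (77.6 to 59.1 CPM, edgeR adjusted p 0.0126). VBP1, a prefoldin subunit that binds VHL, fell by 0.33 (adjusted p 0.0242), and NEDD8, the modifier that activates cullins, fell by 0.16 (adjusted p 0.0429). With siARNT 0 of 9 were called for hypoxia, against 4.09% of all genes, and the difference between the arms was called for 0 of 9, against 4.69%. RBX1, the RING subunit, was higher with siARNT in normoxia (log2 0.55, adjusted p 0.00027) and in hypoxia (log2 0.44, adjusted p 0.000497).

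Among 8 regulators of the hydroxylases or of HIF alpha, 1 fell for hypoxia in siControl: HSP90AA1, a chaperone of HIF alpha, at log2 -0.49 (edgeR adjusted p 0.0022). That count is near the background of 14.9% of all genes lower and is no result about the list. SIAH2, a ligase that targets PHD3, stood at 21.2 CPM in normoxia siControl and 22.3 in hypoxia siControl (log2 0.07, SE 0.08). RACK1, which binds HIF-1 alpha apart from VHL, was lower with siARNT in hypoxia (700 to 347 CPM, log2 -1.01, SE 0.17, adjusted p 0.0012).

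All 3 tested transactivation partners rose for hypoxia in siControl, against 10.4% of all genes (median log2 0.30, against 0.02). In siARNT 0 of 3 were called, where 4.09% of all genes were, so the latter count says little. These are the coactivators whose binding HIF1AN hinders and a protein that competes for them. CITED2, the competitor, rose from 33.6 to 47.1 CPM (log2 0.49, SE 0.07, edgeR adjusted p 0.0006), and its difference between arms was called (log2 -0.66, adjusted p 0.0051). CREBBP rose by log2 0.30 (adjusted p 0.0038) and EP300 by 0.20 (adjusted p 0.0125). Of 5 further proteins with ankyrin repeats that HIF1AN hydroxylates, 1 rose and 1 fell for hypoxia in siControl, against 10.4% of all genes higher and 14.9% lower. NFKBIA, an inhibitor of NF-kappa B, rose by log2 0.64 (SE 0.15, adjusted p 0.0077), and NFKB1 fell by 0.16 (adjusted p 0.0292).

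Of 9 enzymes that make or use 2-oxoglutarate or the related acids that inhibit the hydroxylases, 3 fell and none rose for hypoxia in siControl, against 14.9% of all genes lower and 10.4% higher (median log2 -0.10, against 0.02). FH, fumarate hydratase, fell by 0.66 (125 to 79.1 CPM, SE 0.09, edgeR adjusted p 0.000224). The succinate dehydrogenase subunits SDHB and SDHC fell by 0.26 and 0.19. The difference between arms was called for FH (log2 0.55, adjusted p 0.0283) and for none of the other 8.

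All 11 tested HIF target genes of the reference list rose for hypoxia in siControl, against 10.4% of all genes (median log2 1.66, range 1.17 to 3.27), so EGLN3 at 3.29 lay just above this range and EGLN1 at 1.09 just below it. In siARNT 5 of 11 rose, against 2.21% of all genes (median 0.37, against -0.04 over all genes). The difference between arms was called for 10 of 11, all negative, against 2.19% of all genes (median -1.34, against -0.02 over all genes). The listed genes were chosen with results of these data known, so their counts are a description.

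Genes whose log2 CPM followed each gene most closely over the 12 libraries were ranked by Pearson correlation among 9855 genes of at least 5 CPM, as a description of libraries that share groups and depth. For EGLN3 these were TMCC1 (0.998), PTPRB (0.997) and ESYT2 (0.997). For EGLN1 they were DYRK2 (0.988), BNIP3L (0.985) and SCIN (0.985), and the correlation of EGLN1 with EGLN3 was 0.98. For EGLN2 they were SOGA1 (0.979), RIPOR1 (0.978) and NPHP4 (0.974). For VHL they were PMAIP1 (0.955), SPCS3 (0.949) and ALG10 (0.941), and for HIF1AN PRR14L (0.896), SPG11 (0.877) and ATXN2 (0.864), which were the lowest of these values.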

How the data were processed

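Titles of the samples gave the group and replicate letter. Raw counts per gene ID were deposited, per the file contents. The submitters' processing notes list Trimmomatic, STAR 2.4.2a and GRCh38.p10, and the counting settings are not given in the sources used here. Lines that name no gene held 22.71 to 25.2% of each library and were left out. Symbols were paired with 51996 of 57820 IDs, which hold 99.35% of counts. The deposited event files give counts of junction reads, mean read coverage as a signal, and the inclusion share as a fraction, per the file headers. Exon lengths of the reported events match GENCODE 29, apart from the long form of EGLN3 exon 1, but their positions are not those of GRCh38, so no event coordinates are printed. No value column lacked a sample.

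For genes, edgeR 4.0.16 under R 4.3.3 was run with TMM factors, the filter filterByExpr and a robust quasi-likelihood fit of 12 libraries with 1 mean per group, with Benjamini-Hochberg adjustment over all genes within each comparison and a threshold of 0.05. Standard errors are the log2 fold change over the root of F. Events with at least 10 reads in every library were tested with limma 3.58.1 on log2 odds with a pseudocount of 0.5. The scripts were tested on simulated data. Alternatives were DESeq2 1.42.0, total count scaling, no filter, only the libraries compared, replicate blocks, GC correction (97.27% of genes had a GC value), leaving out each library, and a log2 fold change of at least 1. For events, they were 20 reads, a pseudocount of 1, the block and leaving out each library. The members and lists were chosen with earlier results of these data known. From the pathway lists 1 gene was left out and is not analysed here. The text names the 5 genes, their events, overlapping loci, the listed pathway genes with the smallest adjusted p and not every listed gene, and the 3 genes nearest each member; HIF1A and SIAH2 were chosen after their values were seen. P-values measure the spread between wells of 1 line.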

Additional observations from a re-analysis of the deposited data

Results flagged for a closer look

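The hypoxia changes of 2 genes differed between the siRNA arms in the direct test of that difference (edgeR, siARNT minus siControl). For EGLN3 the difference was log2 -2.57 (adjusted p 8.09e-07), with all 3 hypoxia siControl libraries above all 3 hypoxia siARNT libraries. For EGLN1 it was log2 -0.77 (adjusted p 0.0054), with the same separation. Both stayed called in each of the 19 alternative fits that changed the fit itself.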

How the results depend on the processing

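The EGLN3 and EGLN1 calls for hypoxia in siControl, for siARNT in hypoxia and for the difference between arms were kept in every alternative fit; where a log2 change of 1 or more was required, the EGLN1 calls for siARNT in hypoxia and for the difference were lost, leaving 1 of the 5 genes called in each. For hypoxia in siARNT, where 1 of 5 was called, 2 were called with DESeq2, total count scaling, no filter on low counts, the replicate block, GC correction and GC correction with the replicate block, and 0 with only the 6 samples compared or the fold limit; the cause was not tested, beyond the fewer samples of the fit to 6. For siARNT in normoxia, 2 were called with GC correction, 0 with the fold limit, and 0 to 1 when leaving out 1 library each. No splicing event was called in any fit.

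Libraries of the same letter and siRNA may share a transfected well. Their deviations from group means correlated at 0.51, 0.74 and 0.49 (A, B and C) with siControl and at 0.91, -0.12 and -0.85 with siARNT. The median was 0.50 over these 6 pairs and -0.21 over 12 pairs of different letters with the same siRNA. Different letters with siControl ran from -0.62 to 0.41. Pairs of the same letter but different siRNA, which cannot share a transfected well, had a median of 0.61. Whether a letter names a well was not tested. With the replicate block, EGLN1 for hypoxia in siARNT gave log2 0.32 (adjusted p 0.0456), and by well 0.33 (adjusted p 0.069); the block changed no other call of the 5 genes.

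Values near 0 that were called in neither fit changed sign. With GC correction, hypoxia in siControl gave HIF1AN 0.0345 and VHL 0.00597, siARNT in normoxia gave HIF1AN 0.00701, and the difference between arms gave EGLN2 0.0309 and VHL -0.0429; with the replicate block added, these were 0.0347, 0.0060, 0.00744, 0.0344 and -0.0426. For siARNT in normoxia, EGLN3 was 0.0199 with total count scaling and 0.00414 with no filter, and the VHL difference was -0.00249 with no filter. The VHL exon 2 event gave -0.0408 for hypoxia in siARNT with a pseudocount of 1.

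Leaving out 1 library gave ranges across 0, called in none of those fits. For hypoxia in siControl these were HIF1AN -0.053 to 0.046, VHL -0.0803 to 0.014, the EGLN3 event -0.69 to 0.15, EGLN1 exon 4 -0.085 to 0.34 and HIF1AN exon 3 -2.56 to 0.087. For hypoxia in siARNT they were EGLN2 -0.029 to 0.28, VHL -0.0696 to 0.029, EGLN1 exon 3 -0.49 to 0.15 and VHL exon 2 -0.60 to 0.78. For siARNT in normoxia they were EGLN1 -0.033 to 0.11, EGLN3 -0.058 to 0.025, the EGLN3 event -0.62 to 0.33 and EGLN1 exon 3 -0.32 to 0.32. For siARNT in hypoxia they were HIF1AN -0.029 to 0.0703, EGLN1 exon 3 -0.0505 to 0.086, HIF1AN exon 3 -0.078 to 2.50 and VHL exon 2 -1.13 to 0.25. For the difference they were EGLN2 -0.27 to 0.049, VHL -0.031 to 0.082 and EGLN1 exon 3 -0.30 to 0.34.

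Counts over all genes moved more. With GC correction, 7245, 3657, 5528, 7841 and 3142 genes were called in the order of the 5 comparisons, in place of 4299, 696, 3431, 4948 and 797 (with the block added, 7478, 3918, 5928, 8092 and 3407). The fold limit left 483, 100, 447, 756 and 178. Hypoxia in siARNT fell to 22 with only 6 samples and 136 by well; the difference gave 373 by well and 1495 with total count scaling. Leaving out 1 library gave 129 to 707, 1571 to 4148 and 272 to 1188 for hypoxia in siARNT, siARNT in normoxia and the difference. With total count scaling the share of calls that were higher went from 53.9 to 65.8% for hypoxia in siARNT, 49.6 to 63.8% for siARNT in hypoxia and 53.2 to 75.3% for the difference.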

Other observations

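The first exon of VHL was hardly covered in any library. Its mean coverage was 0.1 to 0.8 reads per base, where exon 2 had 47.2 to 137.2. The junction from exon 1 to exon 2 held 7 to 30 reads per library and that from exon 2 to exon 3 held 63 to 185. The first as a share of the second was 5.1, 9.4 and 11.5% in normoxia siControl and 28.8, 21.5 and 15.9% in hypoxia siControl, so these groups did not overlap. It was 12.4, 15.4 and 10.3% in normoxia siARNT and 12.1, 12.0 and 10.5% in hypoxia siARNT, which overlapped. These shares were looked at after the values were seen and were not tested.

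EGLN3-AS1, annotated antisense to EGLN3, held 0 counts in the 6 normoxia libraries and at most 5 in any hypoxia library. The processed copy EGLN1P1 held 0 counts in all 12 libraries, and EGLN3P1 and VHLL held at most 1.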
